A study of Mus musculus with 6 samples.

Results

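The genes described here encode 9 surface proteins of blood stem and progenitor cells. They are Ly6a and Kit, whose products (Sca1 and cKit) defined the sort, and Cd34, Slamf1, Cd48, Procr, Cd27, Esam and Tek, which are used to divide stem cells from multipotent progenitors. They were chosen by name, and all 9 of 9 were found by Ensembl identifier among the 56750 rows of the deposited table. RNA was sequenced from bone marrow cells of C57BL/6 mice that the labels give as Lin- Sca1+ cKit+ (LSK). The DIC group (DSS-induced colitis) had received 2.5% dextran sulfate sodium, an agent that injures the colon lining, for 5 days, and the other group is labelled control. The labels give 3 mice and 3 libraries for each group, and state neither age nor sex nor which antibodies made up the lineage cocktail.

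LSK cells are the marrow fraction in which blood stem cells and multipotent progenitors are found. Within it, mouse long-term stem cells carry Slamf1 (CD150), Procr (EPCR), Esam and Tek (Tie2) and little CD48, while CD48, CD34 and CD27 come up as cells become multipotent progenitors. Ly6a is known as an interferon-inducible gene, and surface Sca1 is known to rise on progenitors during inflammation. A surface marker and its transcript need not change together, and the values below are of transcripts.

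Libraries are named DIC 1, 2 and 3 and control 1, 2 and 4 after the table's columns. The labels place each column in its group, but they do not tie controls 1 and 4 to single samples. The values are TPM, transcript abundances scaled to gene length and to a common total per library, which keep no sequencing depth, so the depth is unknown and no counting interval can be given. The labels say no more on how the libraries were replicated, so the p-values refer to spread between libraries, which may be partly technical. In bulk RNA, fewer cells of a type and less RNA per cell cannot be told apart. Summed TPM of the 20 granulocyte genes in the neutrophil list made up 23.0%, 15.7% and 19.3% of the library in DIC, against 4.34%, 12.8% and 3.10% in controls 1, 2 and 4. Control 2 therefore lay between the other controls and the DIC libraries in granulocyte transcripts.

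The 9 genes fell into 2 tiers of abundance. Cd48, Cd34, Kit, Cd27 and Ly6a lay above 15 TPM in every library, and Esam, Procr, Slamf1 and Tek below 5 TPM in every library. Cd48 was the most abundant member in 6 of 6 libraries, at a mean of 194 TPM over all of them, and its range did not overlap that of Cd34 (mean 101 TPM). Cd34 exceeded Kit (mean 81.7 TPM) in 4 of 6 libraries, so these neighbours were not separated. Kit exceeded Cd27 (mean 35.8 TPM) in 6 of 6 libraries, although their ranges overlapped between libraries. Cd27 exceeded Ly6a (mean 26.8 TPM) in 4 of 6. From Ly6a to Esam (mean 2.18 TPM) the level dropped by the largest factor in the order, with no overlap. Below it the order of Esam, Procr (mean 1.69 TPM), Slamf1 (mean 1.00 TPM) and Tek (mean 0.83 TPM) changed from library to library.

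**Figure D1:**
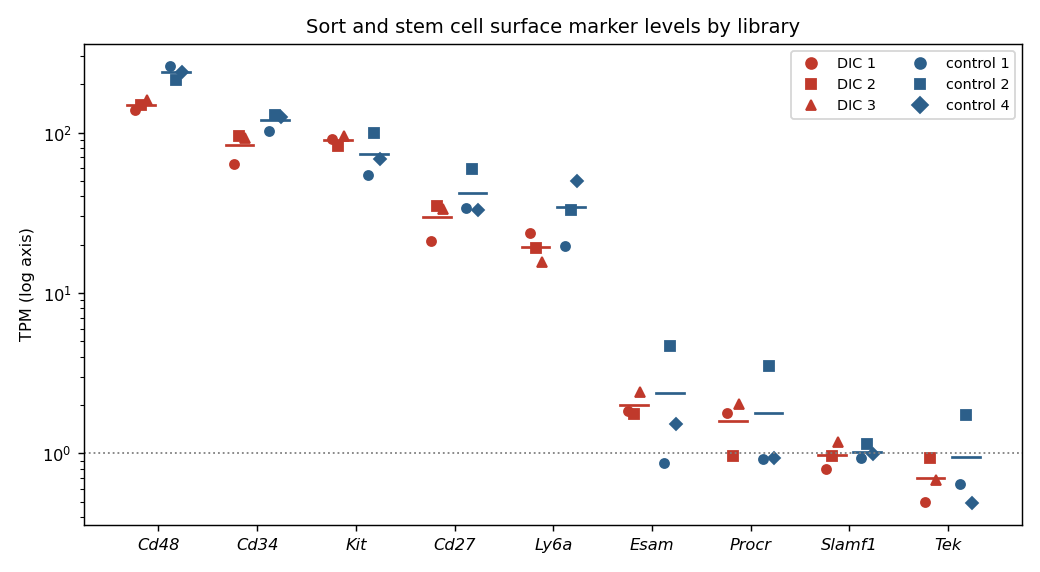
TPM (log axis) of the 9 genes in each of the 6 libraries, with DIC libraries in red left of control libraries in blue, bars at group means and a dotted line at 1 TPM. Cd48 and Cd34 are the 2 genes in which all 3 DIC points lie below all 3 control points, and Esam, Procr, Slamf1 and Tek sit near the dotted line apart from control 2.

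Ranks place these levels in the whole library. A percentile here is the share of the 13496 tested genes, those that reached 1 TPM in 3 or more of the 6 libraries, that had a lower value. Cd48 stood at percentiles 92.6 to 93.4 in DIC and 94.7 to 94.999 in control. Cd34 stood at 84.0 to 89.4 in DIC and 88.2 to 91.7 in control. Kit stood at 87.8 to 89.0 in DIC and 79.2 to 89.4 in control, so its rank varied more among controls. Ly6a, the Sca1 gene of the sort, was closer to the middle, at 52.1 to 63.3 in DIC and 58.0 to 78.2 in control. Cd27 stood at 60.1 to 73.6 in DIC and 70.1 to 82.0 in control. Esam, Procr, Slamf1 and Tek stayed at or below percentile 26.0 in every library. Ranked instead among all rows above 0 TPM, the mean percentile was 96.2 for Cd48, 77.2 for Ly6a and 34.3 for Tek.

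**Figure D2:**
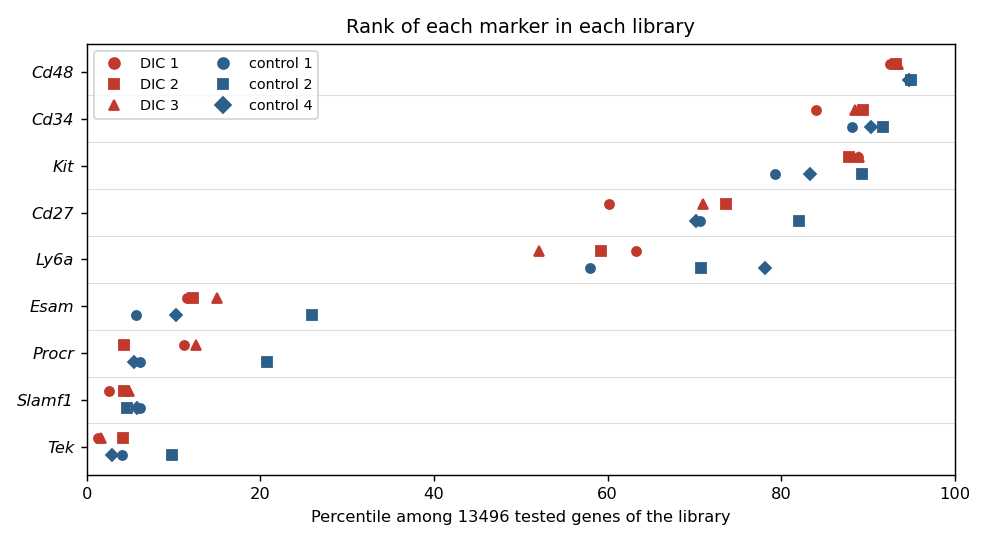
Percentile of each gene among the 13496 tested genes in each library, with DIC libraries (red) above control libraries (blue) within each gene. Ly6a spreads from 52.1 to 78.2, whereas Cd48 stays between 92.6 and 94.999.

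The sort genes differed from each other in how the groups lay. Ly6a (ENSMUSG00000075602), which encodes the GPI-anchored protein Sca1, was at 23.8, 18.9 and 15.5 TPM in DIC 1 to 3, against 19.7, 33.0 and 49.9 TPM in controls 1, 2 and 4. The groups overlapped through control 1, and control 4 held the highest value. Ly6a averaged 19.4 ± 4.14 TPM in DIC and 34.2 ± 15.2 TPM in control (SD, n = 3 each). On the log2(TPM + 1) scale its fold change of -0.71 ± 0.33 (SE) did not pass the adjusted threshold of 0.05 (limma, adjusted p = 0.273). The difference depended on single controls. It was -0.40 without control 4 and -1.05 without control 1, neither past the threshold (limma adjusted p = 0.542 and 0.432).

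Kit (ENSMUSG00000005672) encodes the receptor tyrosine kinase for stem cell factor. It was at 90.7, 82.3 and 95.2 TPM in DIC, against 54.2, 99.5 and 68.2 TPM in controls 1, 2 and 4. All DIC libraries lay above controls 1 and 4 and below control 2. Kit averaged 89.4 ± 6.57 TPM in DIC and 74.0 ± 23.2 TPM in control, and its log2 fold change of 0.31 ± 0.22 did not pass (limma adjusted p = 0.439). Without control 2 the log2 fold change was 0.55 (limma adjusted p = 0.0575), and without control 1 it was 0.11 (limma adjusted p = 0.796).

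Of the progenitor markers, Cd48 gave the clearest separation. Cd48 (ENSMUSG00000015355) encodes a GPI-anchored SLAM-family protein that binds CD244 and CD2. It was at 138, 149 and 160 TPM in DIC, against 260, 214 and 240 TPM in controls 1, 2 and 4. The highest DIC library stayed below the lowest control, and the spread within each group was small, with a coefficient of variation of 7.19% in DIC and 9.87% in control. The means of 149 ± 10.7 TPM in DIC and 238 ± 23.5 TPM in control correspond to a log2 fold change of -0.67 ± 0.13, with a 95% interval from -0.96 to -0.37. Its unadjusted p was 0.00101 and its limma adjusted p over all genes 0.212, so it did not pass. Without control 2, where 12.4% of all tested genes were called (1671 in place of 8), Cd48 passed with a log2 fold change of -0.74 (limma adjusted p = 0.0223).

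Cd34 (ENSMUSG00000016494), a sialomucin of progenitors that also binds selectins, was at 63.9, 95.8 and 92.1 TPM in DIC, against 102, 129 and 125 TPM in controls 1, 2 and 4. The groups did not overlap, but DIC 2 lay close below control 1. Cd34 averaged 83.9 ± 17.5 TPM in DIC and 119 ± 14.8 TPM in control, a log2 fold change of -0.51 ± 0.19 (limma adjusted p = 0.218). The difference was -0.33 without DIC 1, which held the lowest value (limma adjusted p = 0.522). Cd27 (ENSMUSG00000030336) encodes a receptor of the TNF receptor family. It was at 21.0, 34.8 and 33.3 TPM in DIC, against 34.0, 59.0 and 33.0 TPM in controls 1, 2 and 4. DIC 1 was low and control 2 high, while the other 4 libraries lay within 2 TPM of each other. Its log2 fold change of -0.47 ± 0.28 did not pass (limma adjusted p = 0.380), and it was -0.20 without control 2 and -0.24 without DIC 1. Cd48, Cd34 and Cd27 together summed to 223, 280 and 285 TPM in DIC, against 396, 402 and 398 TPM in controls 1, 2 and 4. Cd48 was the largest part of each sum, and Cd27 alone overlapped between the groups. Among the controls, control 2 held the highest Cd34 and Cd27 but the lowest Cd48.

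The stem cell markers were low throughout. Slamf1 (ENSMUSG00000015316), which encodes CD150, was at 0.80, 0.96 and 1.18 TPM in DIC, against 0.93, 1.14 and 0.99 TPM in controls 1, 2 and 4. The groups overlapped fully and the largest value was 1.48 times the smallest. Slamf1 reached 1 TPM in 2 libraries and was not tested. Without the filter its log2 fold change was -0.03, with a 95% interval from -0.51 to 0.45, an interval that holds both higher and lower values. Tek (ENSMUSG00000006386), the angiopoietin receptor Tie2, was at 0.50, 0.94 and 0.68 TPM in DIC, against 0.64, 1.73 and 0.49 TPM in controls 1, 2 and 4. It reached 1 TPM only in control 2 and was not tested. Without the filter its log2 fold change was -0.15, with a 95% interval from -0.84 to 0.54.

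Procr (ENSMUSG00000027611), the endothelial protein C receptor, was at 1.79, 0.96 and 2.04 TPM in DIC, against 0.92, 3.48 and 0.93 TPM in controls 1, 2 and 4. Esam (ENSMUSG00000001946), an immunoglobulin-family adhesion molecule of endothelial junctions and stem cells, was at 1.83, 1.76 and 2.41 TPM in DIC, against 0.87, 4.70 and 1.53 TPM in controls 1, 2 and 4. In both genes control 2 was the highest library. The controls spread over a coefficient of variation of 83.0% for Procr and 86.5% for Esam, against 35.4% and 17.8% in DIC. The log2 fold changes were 0.00 ± 0.39 for Procr and -0.01 ± 0.41 for Esam (limma adjusted p = 1.00 and 0.995). Their 95% intervals, -0.91 to 0.91 and -0.97 to 0.96, leave room for a change of either sign. Without control 2 the log2 fold changes were 0.41 and 0.46 (limma adjusted p = 0.355 and 0.263), so the values close to 0 were not kept without that library.

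Control 2 carried most of these genes at their highest. Slamf1, Procr, Esam and Tek summed to 4.92, 4.62 and 6.31 TPM in DIC, against 3.36, 11.1 and 3.94 TPM in controls 1, 2 and 4. Control 2 was the highest of the 6 libraries for 6 of the 9 members (Kit, Cd34, Procr, Cd27, Esam and Tek), whereas 16.7% of all tested genes had their maximum there. The exceptions were Slamf1, highest in DIC 3, Cd48, highest in control 1, and Ly6a, highest in control 4. This pattern was noticed in the values and carries no test. Other surface genes of stem cells had their maximum in control 2 as well, in 11 of 27 tested, and so did 9 of 21 tested genes of the stem cell programme, Hlf among them at 5.39, 4.55 and 5.06 TPM in DIC, against 2.19, 7.76 and 2.82 TPM in controls 1, 2 and 4. Hlf encodes a transcription factor of stem cells and was chosen after its values were seen. The maximum also lay in control 2 for 6 of 9 tested megakaryocyte genes and 3 of 4 tested genes of Tie signalling. The megakaryocyte list shares the integrin gene Itga2b with the surface genes. Control 2 was highest for 0 of 20 neutrophil and 0 of 15 erythroid genes.

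**Figure D3:**
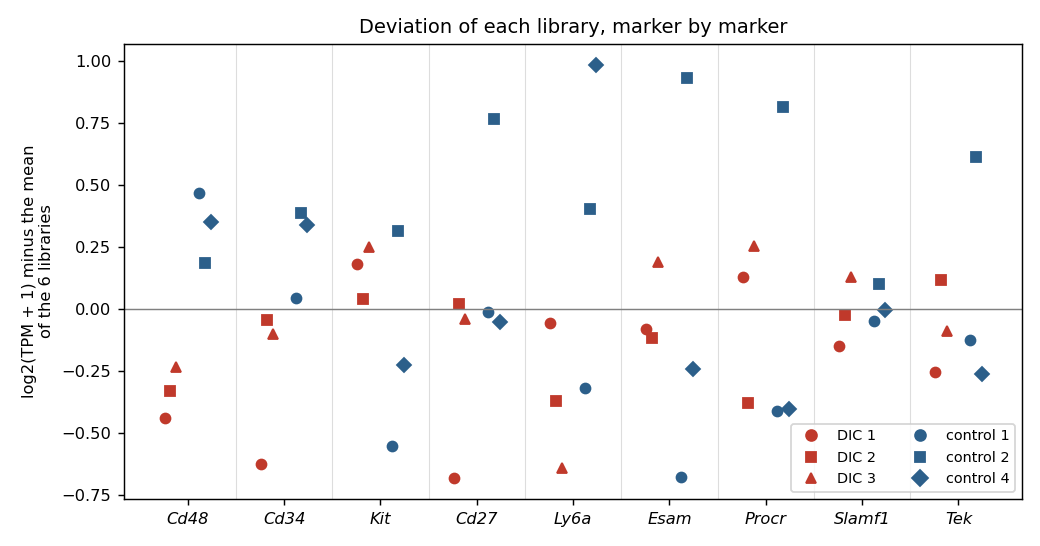
Each library's log2(TPM + 1) minus the mean of the 6 libraries, gene by gene, with DIC libraries (red) left of control libraries (blue). Control 2 (blue square) is the highest point for Kit, Cd34, Procr, Cd27, Esam and Tek, and the DIC points for Cd48 and Cd34 are all below the control points.

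Across the 7 tested members, 0 passed the adjusted threshold of 0.05 (limma), where 0.0593% of all tested genes did (8 of 13496). At an unadjusted p under 0.05 there were 2 of 7, Cd48 and Cd34, beside 20.2% of all tested genes. The same 2 were lower in DIC without overlap, beside 18.4% of tested genes, and 0 members were higher without overlap, beside 7.08%. In either direction 25.5% of tested genes had groups without overlap. Of the 7, 5 had negative fold changes and 2 positive ones, with a median of -0.47, where 58.5% of all tested genes were negative with a median of -0.08. With 7 genes these shares are not set apart from the background. Without control 2, 1 of 7 passed (Cd48, lower in DIC), where 8.45% of tested genes were called lower, and the median was -0.20.

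The large granulocyte share of the DIC libraries enters every TPM value. After removal of the 20 neutrophil genes and rescaling of the remaining TPM to the original total, Cd48 was at 180, 177 and 198 TPM in DIC, against 272, 245 and 248 TPM in controls 1, 2 and 4, still without overlap, beside 7.88% of genes lower in that way. Cd34 then overlapped, at 83.0, 114 and 114 TPM in DIC against 107, 148 and 129 TPM in controls 1, 2 and 4. The rescaling moved the median of all tested genes from -0.08 to 0.10. Each fold change was then set against the median of its own setting. Rescaling multiplies all remaining genes of a library by the same factor. This step therefore cancels it by construction, apart from the 1 added to each TPM and the 20 genes left out. The near-equal values that follow are thus no test of the granulocyte share. So taken, the log2 fold change of Cd48 was -0.56 after rescaling and -0.59 before it, that of Ly6a -0.62 and -0.63, that of Cd34 -0.41 and -0.43, and that of Kit 0.42 and 0.39.

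**Figure D4:**
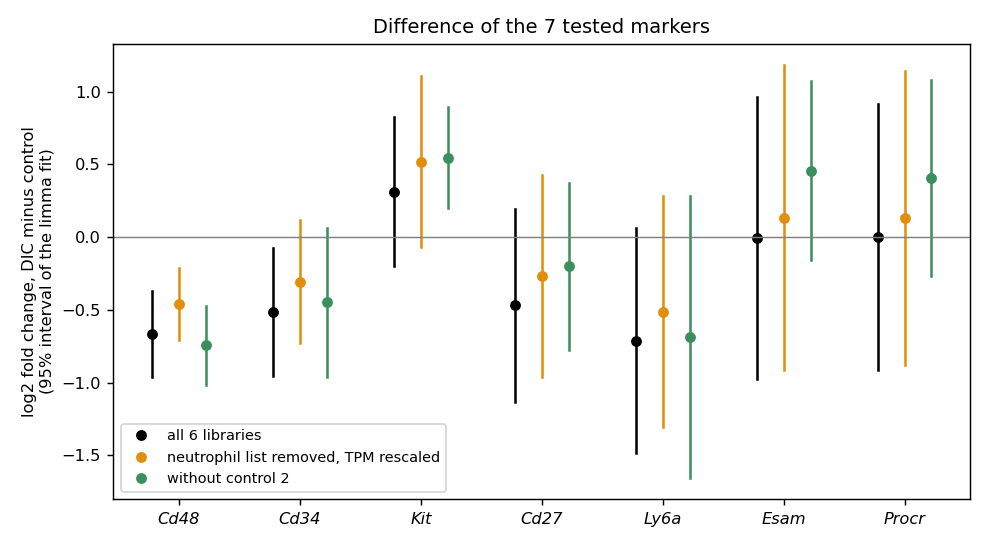
Log2 fold change, DIC minus control, of the 7 tested genes with 95% intervals of the limma fit, for all 6 libraries (black), after removal of the neutrophil list and rescaling (orange) and without control 2 (green). The Cd48 interval lies below 0 in all 3 settings, and the intervals of Esam and Procr span 0 widely. Of these settings, the Cd34 interval lies below 0 only with all 6 libraries, and the Kit interval above 0 only without control 2.

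Ratios of TPM + 1 between members within a library change little with the library's total. Rescaling after removal of the neutrophil genes moved the difference between groups, DIC minus control, to -1.03 for Ly6a to Kit, against -1.02 before it. Relative to Kit, the other abundant members lay lower in DIC. The log2 ratio of Cd48 to Kit was 0.60, 0.85 and 0.74 in DIC, against 2.24, 1.09 and 1.80 in controls 1, 2 and 4. That of Cd34 to Kit was -0.50, 0.22 and -0.05 in DIC, against 0.90, 0.38 and 0.87 in controls 1, 2 and 4. In TPM, Cd34 was at 0.704, 1.16 and 0.967 times the level of Kit in DIC, against 1.88, 1.30 and 1.84 times in controls 1, 2 and 4. The log2 ratio of Ly6a to Kit was -1.89, -2.06 and -2.54 in DIC, against -1.42, -1.56 and -0.44 in controls 1, 2 and 4, and that of Cd27 to Kit was -2.06, -1.22 and -1.49 in DIC, against -0.66, -0.75 and -1.03 in controls 1, 2 and 4. Control 2, which exceeded every DIC library in Kit, lay above every DIC library in all 4 ratios, but in Cd48 to Kit and Cd34 to Kit it was nearer to DIC 2 than to the next control.

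The differences of the mean log2 ratio, DIC minus control, were -0.98 for Cd48, -0.83 for Cd34, -1.02 for Ly6a and -0.78 for Cd27, each over Kit. The groups did not overlap in these 4 ratios, where 12.3% of the 13495 other tested genes had a ratio to Kit lower in DIC without overlap. All 4 share Kit as denominator, so they are not independent of each other. Kit had a positive fold change and the 4 numerators negative ones, and the ratios were chosen with earlier results of these data known. The lack of overlap is therefore not separate support for the differences given above. Each had p = 0.1 in a two-sided exact permutation test of 3 libraries against 3, the smallest p this design allows, and 0.125 after adjustment over the 5 ratios compared. The log2 ratio of Cd48 to Cd34 was 1.10, 0.64 and 0.79 in DIC, against 1.34, 0.72 and 0.93 in controls 1, 2 and 4, with overlap and a difference of -0.16 (exact permutation p = 0.6, adjusted 0.6).

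**Figure D5:**
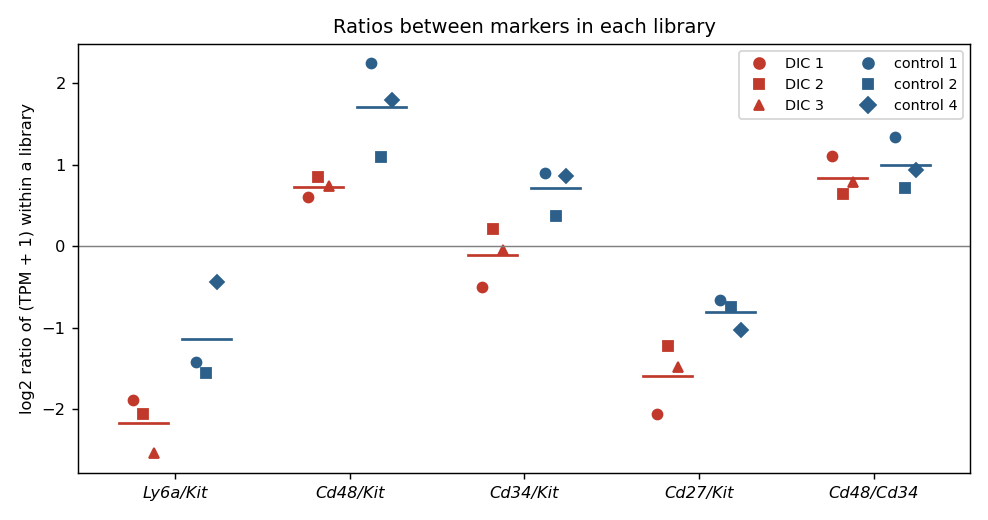
Log2 ratio of (TPM + 1) between pairs of members in each library, with DIC libraries (red) left of control libraries (blue) and bars at group means. The DIC points lie below all control points for the 4 ratios over Kit and overlap them for Cd48 over Cd34.

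Other genes of the same families, pathways and cell types gave 0 calls in every list (limma, adjusted over all tested genes). At an unadjusted p under 0.05, 36 of the 196 tested genes in these lists, each counted once and markers of other cells included, were higher in DIC and 34 were lower, beside 20.2% of all tested genes in either direction. Without control 2, where 12.4% of all tested genes were called, several lists held calls, and those counts are given with each list. Among 30 other surface genes of stem and progenitor cells, 27 were tested, 13 with positive and 14 with negative fold changes (median -0.03). Of these, 4 were higher in DIC without overlap (beside 7.08% of all tested genes) and 1 was lower (beside 18.4%). Without control 2, 3 were called higher and 1 lower. Cd9, a tetraspanin of stem cells and megakaryocytes, was at 273, 206 and 244 TPM in DIC, against 88.5, 195 and 108 TPM in controls 1, 2 and 4. Ly6e, a Ly6 relative of Sca1, was the one that was lower, at 1024, 1244 and 1101 TPM in DIC, against 2324, 1550 and 3278 TPM in controls 1, 2 and 4. Of 24 stem cell programme genes, 21 were tested with 12 positive and 9 negative (median 0.12), and 1 was called higher without control 2. Gata2, a stem and progenitor transcription factor, was at 15.4, 14.7 and 19.8 TPM in DIC, against 19.97, 40.4 and 23.98 TPM in controls 1, 2 and 4. Lmo2, a transcriptional adaptor of blood progenitors, was at 171, 182 and 190 TPM in DIC, against 208, 223 and 234 TPM in controls 1, 2 and 4, also without overlap.

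Of 14 Ly6 relatives of Ly6a, 8 were tested and 6 of them had negative fold changes (median -0.57), with 1 called higher and 4 lower without control 2. Ly6g, the neutrophil surface marker, was higher in every DIC library, at 367, 71.3 and 182 TPM in DIC, against 12.2, 48.8 and 7.50 TPM in controls 1, 2 and 4. It did not pass (limma, adjusted p = 0.212). Ly6d, a marker of lymphoid progenitors, was at 36.4, 33.5 and 43.3 TPM in DIC, against 66.8, 50.4 and 54.9 TPM in controls 1, 2 and 4. Among 15 interferon receptors, factors and targets, listed because Ly6a responds to interferon, 11 of 15 were negative with a median of -0.29, and 3 were called lower without control 2. Tap1, a peptide transporter induced by interferon, was at 41.7, 42.5 and 41.0 TPM in DIC, against 71.6, 66.3 and 72.7 TPM in controls 1, 2 and 4. The groups did not overlap, but it did not pass (limma, adjusted p = 0.201). Irf1, an interferon-induced transcription factor, was at 40.4, 37.7 and 41.7 TPM in DIC, against 73.7, 50.7 and 136 TPM in controls 1, 2 and 4. Control 4, the highest library for Ly6a, was also the highest for 9 of these 15 genes, beside 23.5% of all tested genes. This was not particular to interferon genes. Control 4 was also highest for 6 of 6 tested B lineage genes and 7 of 9 tested mast cell and basophil genes, but for 0 of 20 neutrophil genes. The SLAM relatives, adaptors and CD48 receptors had 7 of 8 tested genes negative (median -0.25), with 1 called lower without control 2. Cd84, the exception, was at 51.5, 17.1 and 31.9 TPM in DIC, against 16.4, 23.5 and 18.3 TPM in controls 1, 2 and 4, with overlap. Cd244a, the CD48 receptor, was at 12.02, 7.04 and 8.45 TPM in DIC, against 8.33, 12.2 and 10.9 TPM in controls 1, 2 and 4, and Ly9, another SLAM-family receptor, was at 7.55, 9.08 and 8.14 TPM in DIC, against 17.7, 9.47 and 13.6 TPM in controls 1, 2 and 4.

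Ligands of the members were mostly near 0. Kitl, the stem cell factor that binds Kit, did not exceed 0.15 TPM, Cd70, the ligand of CD27, was listed at 0 in 5 libraries and at 0.10 TPM in control 4, and Proc, the protein C precursor, was listed at 0 in all. Angpt1, the activating ligand of Tek, was present, at 14.3, 16.7 and 20.0 TPM in DIC, against 8.58, 25.5 and 18.9 TPM in controls 1, 2 and 4. Of the 8 genes of Tie signalling 4 were tested, 3 of them positive. Dok2, an adaptor of that pathway, was at 21.7, 23.2 and 21.8 TPM in DIC, against 10.1, 32.8 and 19.1 TPM in controls 1, 2 and 4. Tnip2, a signalling inhibitor, was lower in every DIC library, at 10.9, 8.42 and 10.5 TPM in DIC, against 12.8, 12.4 and 15.8 TPM in controls 1, 2 and 4. Among 24 genes of Kit signalling, 23 were tested, 12 of them positive and 11 negative (median 0.06). Cblb, a ubiquitin ligase of this pathway, was at 6.54, 7.10 and 4.88 TPM in DIC, against 9.56, 8.19 and 12.01 TPM in controls 1, 2 and 4, and Fyn, a Src-family kinase, at 6.08, 7.97 and 8.28 TPM in DIC, against 9.41, 11.6 and 10.6 TPM in controls 1, 2 and 4. Siva1, which encodes an adaptor that binds CD27, was at 271, 298 and 354 TPM in DIC, against 426, 390 and 424 TPM in controls 1, 2 and 4, without overlap. It did not pass either (limma, adjusted p = 0.212). Siva1 belongs to the 15 partners of CD27 and Procr, of which 9 were tested, 6 of them negative (median -0.09). Traf2, a signalling adaptor of the TNF receptor family in the same list, was at 21.9, 20.4 and 25.4 TPM in DIC, against 27.4, 26.9 and 24.1 TPM in controls 1, 2 and 4, with overlap. Of the 6 CD34 relatives and selectins 4 were tested, 2 in each direction. Sele, which encodes E-selectin, was at 2.27, 3.24 and 1.98 TPM in DIC, against 2.80, 2.90 and 2.98 TPM in controls 1, 2 and 4, with overlap. All 3 tested relatives of the Kit receptor were negative (median -0.28). Flt3, a receptor kinase related to Kit and a marker of multipotent progenitors, was at 13.9, 18.0 and 17.5 TPM in DIC, against 19.1, 28.6 and 14.6 TPM in controls 1, 2 and 4, and Csf1r, the macrophage colony-stimulating factor receptor, was at 28.0, 18.1 and 18.8 TPM in DIC, against 46.6, 23.7 and 31.0 TPM in controls 1, 2 and 4. Both overlapped between the groups.

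Several members are also expressed outside LSK cells, so markers of other cells were measured beside them. Kit is present in mast cells, and the mast cell and basophil list summed to 448 to 620 TPM in DIC and 1066 to 3503 TPM in control, with 8 of 9 tested genes lower in DIC without overlap, beside 18.4% of all tested genes, and 4 called lower without control 2. Its most abundant genes by mean TPM were Prss34 and Mcpt8, basophil proteases, with Prss34 at 132, 169 and 209 TPM in DIC, against 864, 415 and 1800.2 TPM in controls 1, 2 and 4, and Mcpt8 at 93.5, 136 and 146 TPM in DIC, against 499, 286 and 1122 TPM in controls 1, 2 and 4. The tryptase genes Tpsb2 and Tpsab1 of mature mast cells were listed at 0 in every library, and the chymase gene Cma1 did not exceed 0.58 TPM. These 3 were chosen after their values were seen and do not stand for the list, of whose 12 genes 9 were tested. Procr, Esam, Tek and Cd34 are present in endothelium. The endothelial and stromal list summed to 119 to 145 TPM in DIC and 144 to 164 TPM in control, and 5 of its 14 genes were tested. Of these 5, 3 were lower in DIC without overlap (Pecam1, Egfl7 and Flt1), beside 18.4% of all tested genes, and 1 was called lower without control 2. Pecam1, an adhesion molecule of endothelium, platelets and leukocytes, was at 13.5, 15.9 and 15.3 TPM in DIC, against 18.5, 21.9 and 23.7 TPM in controls 1, 2 and 4. Egfl7, a secreted endothelial factor, was at 25.9, 32.3 and 25.5 TPM in DIC, against 46.3, 45.5 and 46.5 TPM in controls 1, 2 and 4. Plvap, the most abundant gene of the list, overlapped, at 69.6 to 88.2 TPM in DIC and 67.5 to 94.4 TPM in control. The defining endothelial genes Cdh5 and Kdr, chosen with Flt1 after their values were seen, did not exceed 0.14 TPM in any library. Cd27 and Cd48 are present in lymphocytes. The T and NK cell list summed to 1316 to 1787 TPM in DIC and 1763 to 2234 TPM in control, with 6 of 6 tested genes negative and 3 lower without overlap, beside 18.4%. Nearly all of that sum was Nkg7, a granule protein gene, at 1302, 1782 and 1483 TPM in DIC, against 1958, 1747 and 2206 TPM in controls 1, 2 and 4. The NK cell receptor gene Klrb1c was at 0.53 to 1.27 TPM in DIC and 1.79 to 3.21 TPM in control, and the granzyme gene Gzma at 0.48 to 2.33 TPM in DIC and 2.87 to 9.56 TPM in control. The T-cell genes Cd3e, Cd4 and Cd8a, chosen after their values were seen, did not exceed 1.57 TPM. The B lineage list summed to 105 to 192 TPM in DIC and 207 to 467 TPM in control, with 6 of 6 tested genes negative and 3 lower without overlap, beside 18.4%. These were Cd79b, of the B-cell receptor, at 36.2 to 44.5 TPM in DIC and 53.2 to 89.3 TPM in control, and the surrogate light chain genes Vpreb1, at 13.3 to 45.4 TPM in DIC and 46.0 to 118 TPM in control, and Igll1, at 20.5 to 59.4 TPM in DIC and 64.0 to 158 TPM in control. Neither list held a call without control 2. The monocyte and dendritic cell list summed to 221 to 303 TPM in DIC and 293 to 739 TPM in control, with 7 of 9 tested genes negative, 2 lower without overlap (beside 18.4%) and 3 called lower without control 2. Irf8, a transcription factor of these cells, was at 48.7 to 75.5 TPM in DIC and 94.5 to 184 TPM in control. Ly86 was at 42.5 to 58.6 TPM in DIC and 56.8 to 162 TPM in control, and F13a1, a coagulation factor gene of monocytes, at 71.5 to 103 TPM in DIC and 79.1 to 277 TPM in control, both with overlap. The megakaryocyte list summed to 241 to 266 TPM in DIC and 106 to 217 TPM in control, with 6 of 9 tested genes positive and 2 called higher without control 2. The platelet chemokine genes Pf4, at 183 to 211 TPM in DIC and 77.2 to 161 TPM in control, and Ppbp, at 2.1 to 3.37 TPM in DIC and 0.52 to 1.4 TPM in control, were higher in every DIC library, and the integrin gene Itga2b overlapped, at 16.5 to 24.2 TPM in DIC and 14.9 to 34.2 TPM in control. The part of these cells in the member values was not tested.

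In every library the summed neutrophil list exceeded Kit and Ly6a. S100a8 and S100a9, which encode the calprotectin subunits, were its most abundant genes. S100a8 was at 105476, 63966 and 86346 TPM in DIC, against 18348, 52974 and 13283 TPM in controls 1, 2 and 4, and S100a9 at 69749, 51010 and 59227 TPM in DIC, against 14055, 41595 and 10554 TPM in controls 1, 2 and 4. Anxa1, an actin-associated phospholipid-binding protein gene of neutrophils, was at 1112 to 1914 TPM in DIC and 581 to 963 TPM in control. Of the promyelocyte list 8 genes were tested, 5 of them negative, and 1 was called in each direction without control 2. Mpo, the myeloperoxidase gene, was at 10026, 12402 and 10759 TPM in DIC, against 13183, 11639 and 12432 TPM in controls 1, 2 and 4. The granule protease genes Elane, at 10118 to 12692 TPM in DIC and 10904 to 12312 TPM in control, and Prtn3, at 2501 to 3593 TPM in DIC and 3235 to 4968 TPM in control, overlapped, and Ctsg was lower in every DIC library, at 1785 to 2173 TPM in DIC and 2221 to 3713 TPM in control. All 20 neutrophil genes had positive fold changes (median 1.96), and 15 were higher in DIC without overlap, beside 7.08% of all tested genes. With all 6 libraries 0 passed the threshold (limma), and 19 were higher at an unadjusted p under 0.05. Without control 2, 14 were called higher, where 530 of the 13496 tested genes were called higher and 12.4% were called in either direction. Itgam, the CD11b gene that lineage cocktails commonly target, was at 172, 81.9 and 111 TPM in DIC, against 21.5, 58.1 and 15.4 TPM in controls 1, 2 and 4. It belongs to 13 genes of common lineage cocktails, of which 9 were tested, 5 of them positive, and 2 were called higher without control 2. Ly6c2, the most abundant of these, was at 4754 to 4994 TPM in DIC and 4382 to 7026 TPM in control. The erythroid list summed to 2133, 738 and 1561 TPM in DIC, against 607, 797 and 609 TPM in controls 1, 2 and 4, with 15 of 15 genes positive (median 1.10), 4 higher without overlap (beside 7.08%) and 0 called without control 2. The carbonic anhydrase genes Car1, at 246 to 647 TPM in DIC and 148 to 282 TPM in control, and Car2, at 246 to 601 TPM in DIC and 156 to 271 TPM in control, overlapped. The erythropoietin receptor gene Epor, at 9.58 to 20.6 TPM in DIC and 6.04 to 8.68 TPM in control, and the membrane skeleton gene Ank1, at 1.28 to 3.73 TPM in DIC and 0.46 to 0.71 TPM in control, were higher in every DIC library. DIC 1, the library with the lowest Cd34, Cd48 and Cd27, held the highest neutrophil and erythroid sums. Control 2, with the highest neutrophil and erythroid sums of the controls, held the highest Cd34, Cd27 and Kit of all 6 libraries, but the lowest Cd48 of the controls. Whether these transcripts bear on the member values was not tested. The rescaling above only took the 20 neutrophil genes out of the library total. It left in place any member transcripts that such cells hold.

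Genes with the most similar profile were sought for Ly6a, Kit and Cd48 among 8755 genes with a mean of at least 5 TPM, by Pearson correlation of log2(TPM + 1) over the 6 libraries. With so few points many genes reach a high value by their place in a large table, so these are descriptions. For Ly6a they were Myl12b, Oas1g and Zfand6, of which Oas1g is an interferon-induced gene, at 7.44, 4.39 and 4.24 TPM in DIC, against 6.68, 12.8 and 35.8 TPM in controls 1, 2 and 4. For Kit they were Nedd4, Ighv5-16 and Rreb1, with Nedd4 at 48.1, 44.1 and 48.4 TPM in DIC, against 32.1, 50.3 and 39.3 TPM in controls 1, 2 and 4. For Cd48 they were Lhpp, Asrgl1 and Mdh1, with Mdh1, a malate dehydrogenase gene, at 165, 183 and 192 TPM in DIC, against 278, 231 and 267 TPM in controls 1, 2 and 4. The number of genes with a correlation above 0.95 was 13 for Ly6a, 67 for Kit and 286 for Cd48.

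Sequence sharing with other genes was small for the members. In the GENCODE M21 transcripts, 0 stretches of 100 bases were shared with another gene for Kit, Slamf1, Cd48, Procr, Esam and Tek. The share was 1.45% for Ly6a, all with Ly6c1, 0.696% for Cd34 with the antisense gene Gm16897, and 1.19% for Cd27 with the microRNA gene Mir8113 inside it. Gm16897 did not exceed 0.53 TPM and Mir8113 was listed at 0. Vamp1, which overlaps Cd27 on the opposite strand, was at 5.96, 6.17 and 5.73 TPM in DIC, against 3.52, 8.13 and 6.76 TPM in controls 1, 2 and 4. Strand use in counting was not given in the sources used here, and reads from the overlap of Cd27 and Vamp1 could be counted for either.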

How the data were processed

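RNA of 6 libraries, 3 DIC and 3 control, was sequenced as read pairs of 150 bases from 10 ng of total RNA with a SMART-Seq low-input kit, per the labels' protocols. The authors deposited TPM values with 2 decimals, 1 column per library. Tools listed in the submitters' processing notes are fastp 0.19.5, HISAT2 2.1.0 and StringTie 2.1.2, and the build listed is GRCm39. Depth per library is unknown and the annotation release was not given in the sources used here. Symbols came from GENCODE M21 (GRCm38) by gene identifier, for 52081 of 56750 rows, and no coordinates are given because the builds differ.

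The test covered the 13496 genes that reached 1 TPM in 3 or more of the 6 libraries. DIC minus control was estimated on log2(TPM + 1) by limma 3.58.1 (R 4.3.3, mean-variance trend), and two-sided p-values were adjusted over all tested genes by Benjamini-Hochberg at a threshold of 0.05. The log2(TPM + 1) scale understates changes of low genes. Of the members 7 were tested, and Slamf1 and Tek fell under the filter. Ratios were tested by exact permutation.

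The members, the 20 gene lists (272 entries including repeats, of which 1 found no row) and the tests were chosen with earlier results of these data known. Named genes are all members, in each list the tested genes past the threshold or otherwise the 2 with the lowest p, also the 2 most abundant for lists of other cells, the 3 most similar profiles for Ly6a, Kit and Cd48, and ligands, partners and overlapping genes of members. The text says which other genes were picked with their values in view. A gene that this rule selects is not reported here.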

Additional observations from a re-analysis of the deposited data

How the results depend on the processing

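No setting reversed the direction of Ly6a, Kit, Cd34, Cd48 or Cd27 in 15 alternatives each, and 1 of these, without control 2, took a member past the threshold (Cd48). Over those alternatives the log2 fold change ran from -1.05 to -0.26 for Ly6a, 0.11 to 0.55 for Kit, -0.62 to -0.31 for Cd34, -0.74 to -0.45 for Cd48 and -0.71 to -0.20 for Cd27. The ends at -0.26 for Ly6a and -0.71 for Cd27 came from the replicate block on library numbers, described below. Only the libraries numbered 1 and 2 set the group difference in that fit. Procr and Esam lie at 0 and changed sign. Procr was at -0.10 after quantile normalization and -0.33 with the replicate block, and between -0.20 and 0.41 with 1 library left out. Esam was at 0.083 with a pseudocount of 0.1, 0.028 with 0.5 and 0.13 after rescaling, and between -0.35 and 0.46 with 1 library left out. The cause was not tested.

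Counts of called genes were unstable. The main count of 5 higher and 3 lower became 2 higher with a pseudocount of 0.1, 8 higher with 0.5, 0 and 0 with no filter on low values and 1 lower after quantile normalization. With 1 library left out, 0 to 530 genes were higher, 0 to 1141 lower, and 0 to 1 tested members passed. The members' median ran from -0.59 to -0.20. The log2 ratio differences ran from -1.23 to -0.67 for Ly6a over Kit, -1.29 to -0.72 for Cd48 over Kit, -0.99 to -0.63 for Cd34 over Kit, -0.96 to -0.54 for Cd27 over Kit and -0.30 to 0.017 for Cd48 over Cd34, which changed sign without control 1.

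Column names share the numbers 1 and 2 between groups, and the labels do not say that they pair mice. With the replicate block on those numbers 3 genes were higher, 5 lower and 0 members passed. DIC 3 and control 4 have no same-numbered partner, so they add nothing to the group difference in that fit. Its fold changes rest on the libraries numbered 1 and 2 alone and are not an alternative estimate from all libraries. Deviations from the group means correlated at -0.07 and -0.10 between same-numbered libraries, and at -0.05 to 0.10 between the others. With only 2 same-numbered combinations these values cannot decide on pairing. The numbers were not taken as pairs because the labels do not give them as such. Ranked among all rows above 0 TPM, the mean percentile was 91.3 for Kit, 92.9 for Cd34, 37.4 for Slamf1, 41.7 for Procr, 81.9 for Cd27 and 44.4 for Esam. With TPM alone, differences in genes near 1 TPM cannot be given a counting error.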
